A study of Rattus norvegicus with 4 samples.

Results

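The arterial endothelial nuclei described here are named after the inner lining of arteries, by the counts of a few genes in each nucleus. They were taken from 2 fat depots of the rat, and for 407 of them the name rests on Sox17 alone (below). A barcode with at least 500 genes was gated as endothelial with at least 3 UMIs (unique molecular identifiers, each standing for 1 captured RNA molecule) from at least 2 genes among Cyyr1, Flt1, Ptprb, Adgrf5, Pecam1, Cdh5 and Emcn. It was allowed at most 1 UMI over Pdgfra, Dcn, Ptprc, Mrc1, Prox1 and Mmrn1, which mark fibroblasts, leukocytes, macrophages and lymphatic endothelium. Gated nuclei with at least 2 UMIs in total over Gja5, Gja4, Sox17, Sema3g and Hey1 were the members. The symbol Pecam1 does not occur in the deposited gene names, so 6 of the 7 endothelial genes were used. The rule found 822 members among 9365 gated endothelial nuclei and 116661 barcodes of at least 500 genes. The other 8543 gated endothelial nuclei, with 0 or 1 UMI over the 5 arterial genes, were the comparison.

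Single-nucleus RNA sequencing was carried out on taPVAT, the fat around the thoracic aorta, and on BAT, the subscapular brown fat, with 2 libraries per tissue. All 4 libraries came from male rats of the strain SS/HsdMcwiCrl (Dahl salt-sensitive), 16 weeks old, on the same feed, labelled normal for disease and with no treatment named, so that both groups share strain, sex and age. Each library was made from snap-frozen tissue, about 50 mg of it, with 10000 nuclei targeted, and held 12336 to 42979 barcodes of at least 500 genes, at a median of 2783 to 4594.5 UMIs. The labels do not say whether the libraries came from separate rats or from pools, so the spread between replicates may be in part technical. Between any 2 libraries, 93 to 381 of these barcodes were the same, at most 1.19% of the smaller library, and 0 barcodes were members in more than 1 library.

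Arterial endothelium is set apart from capillary and venous endothelium during development by Notch signalling, in which ligands of the Delta and Jagged families on one cell activate Notch receptors on the next. SOX17 is a transcription factor that acts in this programme, HEY1 is a transcriptional repressor induced by Notch, and GJA5 and GJA4 (connexins 40 and 37) form the gap junctions that couple arterial endothelial cells. SEMA3G is a secreted semaphorin of arterial endothelium. In fat, capillary endothelium carries the proteins that bind lipoprotein lipase and pass fatty acids to adipocytes, while arteries and arterioles control the flow that reaches them.

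The promoters of 3 of the 5 arterial genes are shown, those for which a RefSeq promoter was matched. These genes took part in choosing the members and, when each was left out of the choice, still differed between the classes (below). Each run is the 250 bases before the gene's start in RefSeq on the build GRCr8, written in the direction of transcription, in the order Gja5 (chr2:187290977-187291226, plus strand), Gja4 (chr5:144920325-144920574, minus strand) and Sema3g (chr16:6419775-6420024, plus strand).
Gja5: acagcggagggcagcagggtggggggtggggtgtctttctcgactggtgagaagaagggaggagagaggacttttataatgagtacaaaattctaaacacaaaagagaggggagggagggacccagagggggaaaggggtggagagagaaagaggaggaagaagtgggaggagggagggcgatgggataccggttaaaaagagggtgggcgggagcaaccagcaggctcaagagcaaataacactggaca
Gja4: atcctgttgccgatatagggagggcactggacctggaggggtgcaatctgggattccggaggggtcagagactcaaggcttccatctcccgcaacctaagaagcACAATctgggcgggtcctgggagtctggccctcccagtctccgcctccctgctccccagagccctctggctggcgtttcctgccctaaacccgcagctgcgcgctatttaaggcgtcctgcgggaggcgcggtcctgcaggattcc
Sema3g: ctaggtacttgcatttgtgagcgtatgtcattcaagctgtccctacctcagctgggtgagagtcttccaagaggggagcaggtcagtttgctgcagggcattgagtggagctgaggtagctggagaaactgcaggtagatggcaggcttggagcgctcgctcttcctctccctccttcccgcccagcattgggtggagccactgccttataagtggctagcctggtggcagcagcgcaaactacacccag
Capitals mark the only match to ACAAT, the core bound by SOX factors, searched on both strands. It begins 146 bases before the start of Gja4, and 30.0% of 33469 rat promoter windows of this length hold at least 1 match. The core of the Notch effector RBPJ, TGGGAA on either strand, is in 22.1% of the windows and in none of these 3. A match or its absence describes the letters of this window and says nothing of binding.

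Members made up 322 of 4055 gated endothelial nuclei in taPVAT replicate 1 (7.94%, 95% Wilson interval 7.15 to 8.81) and 82 of 570 in taPVAT replicate 2 (14.4%, 11.7 to 17.5). In BAT they were 263 of 2453 in replicate 1 (10.7%, 9.56 to 12.0) and 155 of 2287 in replicate 2 (6.78%, 5.82 to 7.88). These intervals cover counting error only. The highest and the second lowest share were both in taPVAT, so the tissues overlapped. The mean share was 11.2% ± 4.56 in taPVAT and 8.75% ± 2.79 in BAT (SD, n = 2 each), a difference of 2.42 percentage points with a two-sided exact permutation p of 0.667, where 2 libraries against 2 cannot go below 0.33. Without taPVAT replicate 2 the difference was -0.81 points. When each nucleus was thinned to 1000 UMIs, which left out 18 to 276 shallower nuclei per library, the shares were 2.41% and 4.17% in taPVAT and 3.0% and 2.10% in BAT, in the same order of libraries. Nuclei gated as adipocytes reached at least 2 arterial UMIs in 0.0378% to 0.0613% of cases. Their median depths were 2833 to 4872 UMIs, against 2064.5 to 2329 UMIs in gated endothelial nuclei. They were chosen to hold no UMI of the endothelial genes of the gate, which can lower this share by the choice itself.

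**Figure D1:**
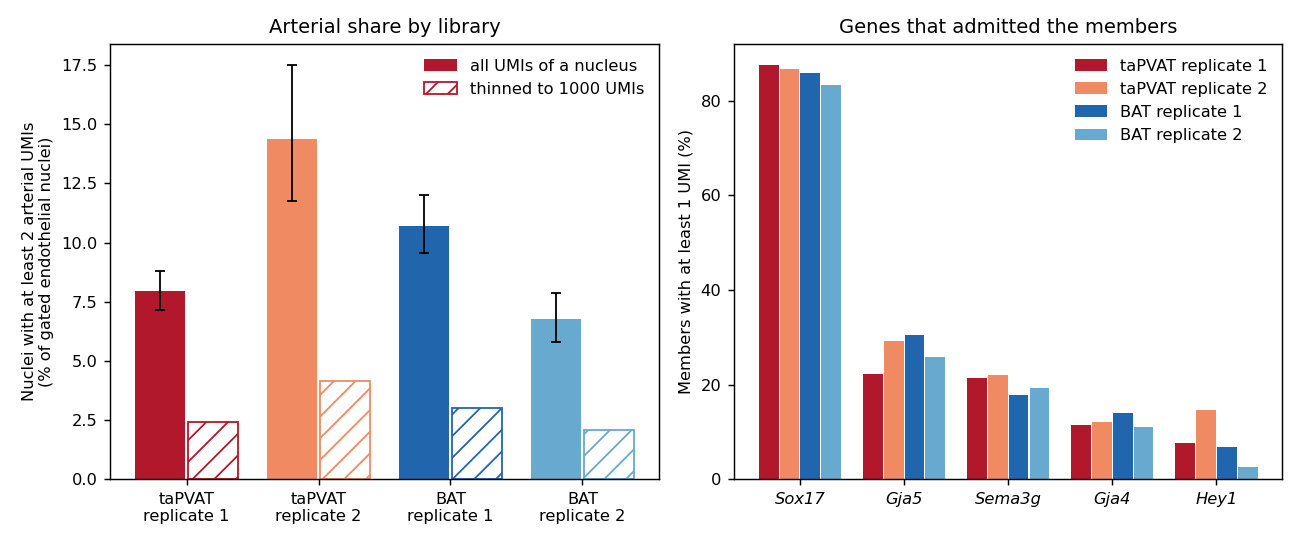
Left, the share of gated endothelial nuclei with at least 2 arterial UMIs in each library (filled bars, with 95% Wilson intervals) and the same share after thinning to 1000 UMIs (hatched bars). Right, the percentage of members with at least 1 UMI of each arterial gene; Sox17 was present in 83.2% to 87.6% of members, the other 4 genes in 2.58% to 30.4%.

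Sox17 admitted most members. It was detected in 708 of 822 (86.1%) and gave 61.3% of their arterial UMIs, while Gja5 was detected in 216, Sema3g in 164, Gja4 in 101 and Hey1 in 59. At least 2 of the 5 genes were detected in 359 members. All arterial UMIs came from Sox17 in 407 members, or 165, 35, 127 and 80 in taPVAT replicates 1 and 2 and BAT replicates 1 and 2, and the remaining 415 had at least 1 UMI of another arterial gene. Just outside the threshold stood 1820 gated nuclei with 1 arterial UMI, just inside it 542 with 2, and 280 members had 3 or more. The median member had 2430 to 2973 UMIs, and the median of the other gated endothelial nuclei was 2002.5 to 2256, so the members were the deeper class in each of the 4 libraries. Their median mitochondrial share of UMIs was 10.2%, 13.7%, 10.7% and 13.4% in taPVAT replicates 1 and 2 and BAT replicates 1 and 2, below the 11.2%, 16.7%, 13.7% and 13.6% of the others.

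Before any test, the 17 genes of the gate describe the members. Sox17 measured 441 and 501 CPM (UMI counts of the summed nuclei of a class, scaled to a common total) in the members of taPVAT replicates 1 and 2 and 391 and 364 CPM for members of BAT replicates 1 and 2, against 41.2 to 58.5 CPM in the other endothelial nuclei. Gja5 measured 107, 168, 188 and 132 CPM in this order of libraries, against 3.75 to 4.85 CPM. These values follow from the rule and carry no test. The pan-endothelial gene Ptprb, a receptor phosphatase that was also part of the gate, measured 415 to 548 CPM in members and 365 to 467 CPM in the others, and Flt1, a VEGF receptor, 410 to 908 against 444 to 984 CPM. The excluded genes stayed low in both classes, with Prox1, the lymphatic regulator, at 0 UMIs in members of all 4 libraries and Dcn at 17.5 to 40.4 CPM.

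An arterial gene can be tested where its own UMIs had no part in the choice, so nuclei were also chosen on the other 4 genes with the fifth left out. These sets, called members in this paragraph only, held 695 nuclei with Gja5 left out, 771 with Gja4, 727 with Sema3g and 789 with Hey1. Gja5 was then measured at 57.5 and 104 CPM in the members of taPVAT replicates 1 and 2 and at 122 and 45.1 CPM for members of BAT replicates 1 and 2, against 10.5 to 18.3 CPM in the other nuclei. Every library had Gja5 higher in members, with a log2 fold change of 2.51 ± 0.17 (SE) and an edgeR adjusted p of 7.94e-09. Gja4 measured 13.2, 37.4, 24.3 and 10.3 CPM in the same order, against 3.01 to 4.57 CPM, a difference of 2.14 ± 0.31 on the log2 scale, at an adjusted p of 3.29e-05 by edgeR. Sema3g measured 33.0, 58.3, 25.7 and 19.2 CPM against 7.25 to 12.5 CPM, a difference of 1.81 ± 0.24 on the log2 scale, at an adjusted p of 2.07e-05 by edgeR. For these genes the ranges of the classes did not overlap. Of the 4 genes tested in this way, Sox17 differed least: chosen on the other 4 genes, 216 nuclei measured 188, 285, 163 and 93.8 CPM of Sox17 against 82.3, 118, 91.5 and 65.5 CPM, and the ranges overlapped. The log2 ratio was 0.91 ± 0.18, at an adjusted p of 0.000338 by edgeR. In this choice the nuclei whose arterial UMIs all came from Sox17 joined the comparison, so the values of the 4 genes rest on unlike choices. Hey1 did not pass the filter on low counts in this fit, at 8.54, 36.4, 6.50 and 3.01 CPM against 3.77, 5.35, 2.72 and 2.00 CPM, higher in members in 4 of 4 libraries.

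Across all other genes, members carried more RNA of 11 of 22 elastic fibre and basement membrane genes and of 4 Notch ligand genes than the other endothelial nuclei of the same library, and less of 9 of 13 capillary and 7 of 13 lipid uptake genes. Gpihbp1, Rbp7, Lpl and Fabp4 were counted in both the capillary and the lipid uptake list. The capillary and lipid uptake calls depended on the libraries and filters, as given with those lists. The edgeR test with library as a term called 552 genes higher (6.07% of 9100 tested) and 279 lower (3.07%) at an adjusted p under 0.05. Members were chosen by UMIs of the same RNA, so this contrast is not independent of the choice for genes that occur together with the 5 arterial genes. The share of calls that were higher was 66.4%, 80.8% with DESeq2 (505 genes) and 81.8% with no scaling beyond library size. Without BAT replicate 1 the count was 405, of which 356 were higher. Of 78 called genes named here for this comparison, 18 were not called with DESeq2 (Hba-a2, Hba-a1, Notch4, Dll4, Efnb2, Cd300lg, Ace, Klf2, Fbn1, Col4a2, Vcam1, Igfbp3, Cyp4b1, Acvrl1, Tie1, Vegfa, Angptl4 and Slc27a1), and 23 were not called without BAT replicate 1. Of those with a value, 22 of 77 were lost on thinned UMIs, 21 of 72 with at most 10% mitochondrial UMIs, 61 of 78 with no library term and 63 of 72 in Sox17-alone members.

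Of the 12 higher genes named by size, Mgp, Eln, Fn1 and Col8a1 encode proteins of the extracellular matrix. Mgp, which encodes a matrix protein that inhibits calcification, measured 91.3 and 636 CPM in members of taPVAT replicates 1 and 2 and 453 and 262 CPM for members of BAT replicates 1 and 2. In the other endothelial nuclei it measured 21.3, 37.4, 22.1 and 36.0 CPM, a difference of 3.30 ± 0.23 (SE) on the log2 scale, at an adjusted p of 4.12e-09 by edgeR. The classes did not overlap, but the members of taPVAT replicate 1 stood far below those of the other 3 libraries. Eln, the gene of elastin, measured 822, 2063, 2283 and 873 CPM in this order against 193, 281, 156 and 169 CPM, a difference of 2.76 ± 0.18 on the log2 scale, at an adjusted p of 1.63e-09 by edgeR. Col8a1, a short-chain collagen of vessel walls, measured 512, 868, 509 and 421 CPM against 107, 172, 62.6 and 62.1 CPM, a difference of 2.54 ± 0.10 on the log2 scale, at an adjusted p of 1.41e-12 by edgeR. Fn1, the gene of fibronectin, measured 86.4, 333, 366 and 428 CPM against 26.4, 70.5, 22.2 and 64.3 CPM, with a log2 fold change of 2.73.

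Of signalling and membrane genes, Dkk2, a secreted modulator of Wnt receptors, measured 378, 458, 360 and 118 CPM in members of taPVAT replicates 1 and 2 and BAT replicates 1 and 2. The other endothelial nuclei had 39.8, 63.9, 33.6 and 19.4 CPM of Dkk2, a difference of 3.06 ± 0.11 (SE) on the log2 scale, at an adjusted p of 3.28e-13 by edgeR. Tmem63c, of a family of mechanically gated channels, measured 65.8 to 142 CPM against 6.58 to 17.6 CPM, a log2 fold change of 3.20 ± 0.17. Kcnab1, an auxiliary subunit of voltage-gated potassium channels, measured 100.3 to 189 CPM against 24.4 to 48.2 CPM, and Dgkb, a diacylglycerol kinase, 164 to 401 against 31.0 to 52.4 CPM. The remaining genes named by size were Ptprj, a receptor phosphatase, Tm4sf1, a membrane protein abundant in endothelium, S100a6, a calcium-binding protein, and Crip1, a LIM-domain protein, with log2 fold changes of 2.54, 2.68, 2.58 and 2.31. For each of these 12 genes the lowest library of the members stood above the highest library of the other nuclei. They were chosen as the largest differences with the same sign in every library, which favours such separation. The share over all genes was not counted.

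**Figure D2:**
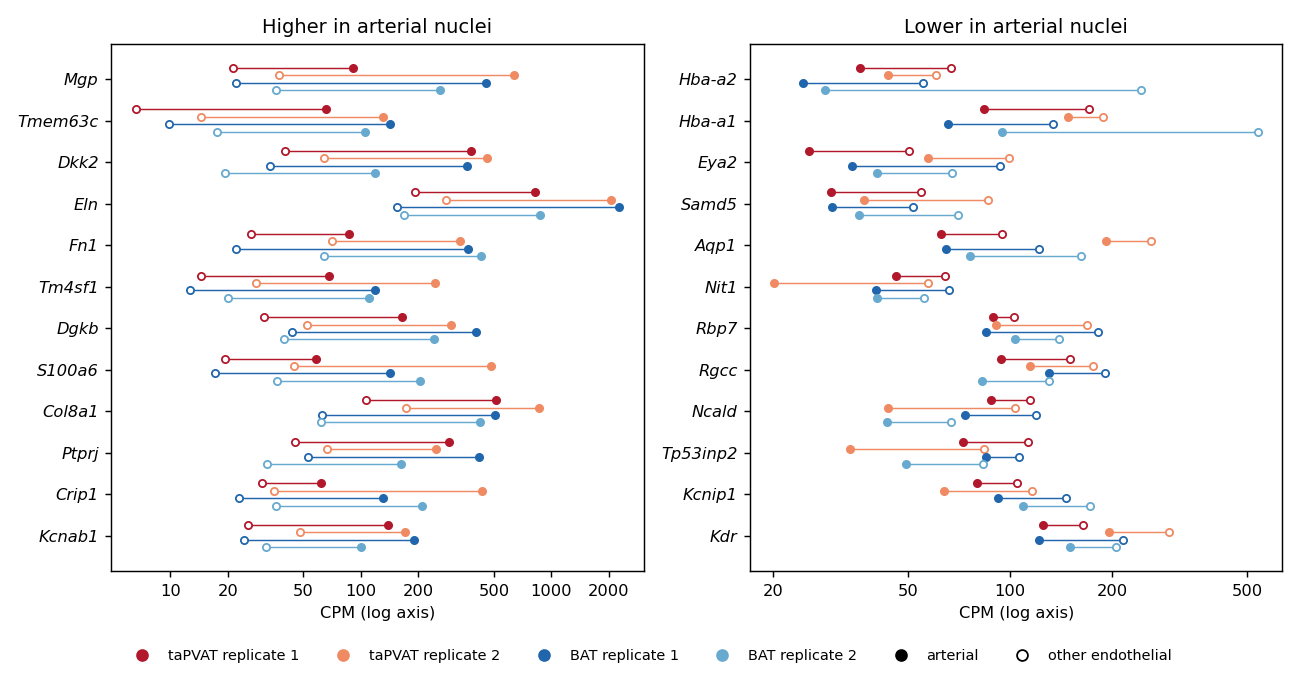
Levels in CPM on a log axis of the 12 genes with the largest log2 fold change in each direction, with 1 line per library from the other endothelial nuclei (open) to the members (filled). On the left the classes are separated for all 12 genes, which were chosen for size and for the same sign in every library. On the right the distances are shorter and the classes overlap for 8 of the 12.

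On the lower side the differences were smaller. Hba-a2 and Hba-a1, alpha-globin genes of red blood cells, were lowest with log2 fold changes of -1.60 and -1.39, and Hba-a2 measured 24.6 to 43.7 CPM in members against 55.5 to 243 CPM in the others. Nuclei gated as adipocytes held 37.0 to 205 CPM of Hba-a2, so this RNA was present outside endothelial nuclei at similar levels. Kdr, the main receptor of VEGF-A, measured 125 and 195 CPM in members of taPVAT replicates 1 and 2 and 122 and 150 CPM for members of BAT replicates 1 and 2, against 164, 294, 215 and 204 CPM. It was lower in members in 4 of 4 libraries although the ranges overlapped, with a log2 fold change of -0.61 ± 0.09 (SE) and an edgeR adjusted p of 0.000128. Aqp1, the water channel of capillary endothelium, measured 62.5, 192, 64.9 and 76.4 CPM against 94.4, 259, 122 and 161 CPM, a difference of -0.81 ± 0.11 on the log2 scale, at an adjusted p of 3.86e-05 by edgeR. Rgcc, a cell cycle regulator used as a capillary marker, measured 82.4 to 130 against 130 to 191 CPM, a log2 fold change of -0.67. Eya2, a transcriptional coactivator, and Samd5 were lower at -1.10 and -0.97, as were Rbp7, a retinol-binding protein, at -0.68 and Ncald, a calcium sensor, at -0.67. Nit1, Tp53inp2 and Kcnip1, with log2 fold changes of -0.68, -0.65 and -0.65, stood higher in adipocyte nuclei than in the other endothelial nuclei in 4 of 4 libraries.

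RNA of adipocyte marker genes was counted in both classes. The 12 adipocyte markers summed to 7106 to 10160 CPM in members and 8970 to 11380 CPM in the other endothelial nuclei. Of the 279 genes lower in members, 166 (59.5%) were higher in adipocyte nuclei than in the other endothelial nuclei in 4 of 4 libraries, against 7 of the 552 higher genes and 31.3% of all genes tested. With at most 10% mitochondrial UMIs per nucleus, 75 genes were lower and 402 higher. Doublets called by Scrublet made up 4.66%, 8.54%, 8.75% and 11.6% of members in taPVAT replicates 1 and 2 and BAT replicates 1 and 2. Of the others they made up 12.5%, 8.40%, 18.4% and 16.9%. In BAT replicate 1, where Scrublet called 0 barcodes, the highest scores were taken instead. Without these nuclei 122 genes were lower and 450 higher. The part of adipocyte RNA, of the mitochondrial share and of doublets in the lower calls was not tested. The mural markers, of smooth muscle cells and pericytes, summed to 500, 316, 494 and 584 CPM in members of taPVAT replicates 1 and 2 and BAT replicates 1 and 2. In the others they summed to 572, 535, 505 and 518.5 CPM, so members were higher in BAT replicate 2 only. Mylk made up most of the sum in members of each library. Values of single mural markers, among them Myh11 and Acta2, are given with the tissue comparison below. Without nuclei holding at least 2 mural UMIs, 784 genes were called, and the log2 fold changes of Eln, Mgp and Lox were 2.64, 3.24 and 3.11.

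The gene lists place these calls by function. Over all 9100 genes the median log2 fold change was -0.03. With no library term in the fit, 2 arterial and Notch genes and 5 matrix genes were higher, and no capillary or lipid uptake gene was lower. Of 23 tested genes of arterial identity and Notch signalling, 12 were higher and 1 lower, with a median of 0.43. The higher genes numbered 8 with DESeq2 and without taPVAT replicate 1, and 9 without BAT replicate 1 and without called doublets. They were 8 of 18 with at most 10% mitochondrial UMIs, and 13 of 21 with at least 1000 genes or 2000 UMIs. The tyrosine kinase gene Bmx, known from arterial endothelium, measured 47.7, 80.8, 44.7 and 24.0 CPM in members of taPVAT replicates 1 and 2 and BAT replicates 1 and 2 against 7.23, 2.41, 6.61 and 3.87 CPM, a difference of 2.88 ± 0.25 (SE) on the log2 scale, at an adjusted p of 7.01e-08 by edgeR. Among Notch ligands, Jag1 (1.26), Dll1 (1.0), Jag2 (0.97) and Dll4 (0.61) were higher, and so were the receptors Notch1 (0.53) and Notch4 (0.43), all values being log2 fold changes. The Dll4 call was lost in 11 of 21 alternatives and the Notch4 call in 13. Of genes named in the lists below, Angptl4 lost its call in 16, Slc27a1 in 15, Cyp4b1 in 13, Col4a2 in 12 and Tie1 in 11. Jag1 measured 71.9 to 178 CPM in members and 28.1 to 54.3 CPM in the others, without overlap. The transcription factor gene Mecom (0.83), the ephrin gene Efnb2 (0.42), Clu (1.61), Igfbp3 (0.80) and Vegfc (1.97) were also higher. Nrp1, a co-receptor of VEGF and semaphorins, was the member of this list that was lower (-0.39), and it measured 1077 to 1145 CPM in adipocyte nuclei, about the level of the endothelial classes.

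Capillary genes went the other way. None of 13 tested was higher and 9 were lower, with a median log2 fold change of -0.41. The 9 became 3 without BAT replicate 1, 5 without taPVAT replicate 1, 4 with at least 1000 genes or at least 2000 UMIs per nucleus, 2 with at most 10% mitochondrial UMIs and 1, Lpl, with the call made on thinned UMIs, where Meox2 was higher. Gpihbp1, which holds lipoprotein lipase on the capillary wall, measured 38.7, 70.7, 36.0 and 58.4 CPM in members of taPVAT replicates 1 and 2 and BAT replicates 1 and 2 against 49.2, 140, 76.8 and 84.6 CPM, a difference of -0.77 ± 0.14 (SE) on the log2 scale, at an adjusted p of 0.00109 by edgeR. The others were Kdr, Rgcc and Rbp7, with the values above, Cd300lg (-0.59), Timp4 (-0.53), Cyp4b1 (-0.41), Lpl (-0.25) and Fabp4 (-0.25). Of 13 lipid uptake genes, 7 were lower and 0 higher, with a median of -0.30. Gpihbp1, Rbp7, Lpl and Fabp4 among these 7 were already counted with the capillary genes. Only 1, Gpihbp1, was lower without BAT replicate 1, 0 of 12 with at most 10% mitochondrial UMIs, and 3 without taPVAT replicate 1, without called doublets, with at least 1000 genes or 2000 UMIs, or on thinned UMIs. Among them Pparg (-0.27), Angptl4 (-0.30) and Slc27a1 (-0.35) are, like Lpl and Fabp4, also expressed by adipocytes. Of 9 venous genes, Vcam1 (1.03) and Vwf (0.75), an adhesion molecule and the von Willebrand factor, were higher and Nrp2 (-0.43) was lower. Vcam1 was higher in both taPVAT libraries and in neither BAT library. The venous regulator Nr2f2 did not pass the test at -0.41 with an edgeR adjusted p of 0.387.

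Of 18 vasoactive genes, 6 were higher and 0 lower, with a median log2 fold change of 0.23, and 3 were higher without BAT replicate 1 and with at most 10% mitochondrial UMIs. Nos3, the endothelial nitric oxide synthase, measured 174, 390, 199 and 288 CPM in members of taPVAT replicates 1 and 2 and BAT replicates 1 and 2 against 96.3, 238, 113 and 138 CPM, a difference of 0.82 ± 0.08 (SE) on the log2 scale, at an adjusted p of 9.92e-07 by edgeR. Members were higher in 4 of 4 libraries, while libraries differed from each other by as much as the classes did. The calcium-activated potassium channels Kcnn4 (2.66) and Kcnn3 (0.92), which hyperpolarise endothelium, and the calcium-entry channel Trpv4 (1.82) were higher too. So were Ace (1.06), which makes angiotensin II, and Ece1 (0.34), which processes endothelin, Ace on 6.58 to 15.8 CPM in members and in 3 of 4 libraries only. The mechanosensitive channel Piezo1 did not pass the test, at -0.15 and 314 to 364 CPM in members, and it stood at 324 to 534 CPM in adipocyte nuclei.

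Of 15 shear-responsive genes, 5 were higher and 0 lower, with a median log2 fold change of 0.10, and 3 were higher with DESeq2, without BAT replicate 1 and without taPVAT replicate 1. They were the anticoagulant gene Thbd (0.99), the ligand gene Bmp6 (0.89), the flow-induced factors Klf4 (0.77) and Klf2 (0.71), and the BMP receptor Acvrl1 (0.50). Klf4 measured 97.9, 377, 74.5 and 184 CPM in members of taPVAT replicates 1 and 2 and BAT replicates 1 and 2 against 60.6, 174, 47.2 and 105 CPM. Replicate 2 of each tissue stood above replicate 1 in both classes, and Klf2 was higher in members in 3 of 4 libraries.

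Elastic fibre and basement membrane genes had the highest list median in the main fit, 0.46, with 11 of 22 tested genes higher and 1 lower. The lead over the arterial and Notch list, at 0.43, was small. The order turned with at least 2000 UMIs per nucleus (0.47 against 0.77) and with at most 10% mitochondrial UMIs (0.38 against 0.51). It also turned with at least 1000 genes, with at least 2 arterial genes, against nuclei with 0 arterial UMIs and in Sox17-alone members. Leaving out the low-count filter, nuclei with at least 2 mural UMIs, taPVAT replicate 2 or BAT replicate 1 turned it as well. In the remaining alternatives, DESeq2 and thinned UMIs among them, it held. Beside Mgp, Eln and Col8a1 the higher matrix genes were Lox (3.05), which cross-links elastin and collagen, and the fibulins Fbln2 (2.08) and Fbln5 (1.25). The microfibril gene Fbn1 (1.29) and the TGF-beta binding proteins Ltbp4 (0.92) and Ltbp1 (0.41) were also higher. So were the basement membrane genes Col18a1 (1.60) and Lama5 (1.22). Lox measured 15.6, 74.0, 44.7 and 22.5 CPM in members of taPVAT replicates 1 and 2 and BAT replicates 1 and 2 against 3.21 to 3.87 CPM. Col4a2, a chain of type IV collagen, was the lower gene at -0.34. Further basement membrane genes had negative values without passing the test: Col15a1 (-0.66), Lamb1 (-0.41), Nid1 (-0.32), Nid2 (-0.24), Lamc1 (-0.21), Lama4 (-0.18) and Col4a1 (-0.14). Col4a5 (0.52) and Lamb2 (0.31) had positive values and did not pass either. Among 19 axon guidance genes 6 were higher, the plexin Plxna4 (1.42), Efna1 (1.39), the netrin Ntn1 (1.33), Sema3f (0.87), Epha4 (0.78) and Efnb2, and Nrp1 and Nrp2 were lower, with a median of 0.10. Of 12 VEGF and angiopoietin genes, Vegfc, the angiopoietin receptor Tek (0.77) and Tie1 (0.38) were higher, and Kdr, Nrp1, Nrp2 and Vegfa (-0.26) were lower, with a median of -0.29. Of 9 positional transcription factors, Gata6 was higher at 2.06 (20.2 to 50.9 against 5.49 to 12.7 CPM), 0 were lower and the median was 0.01.

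**Figure D3:**
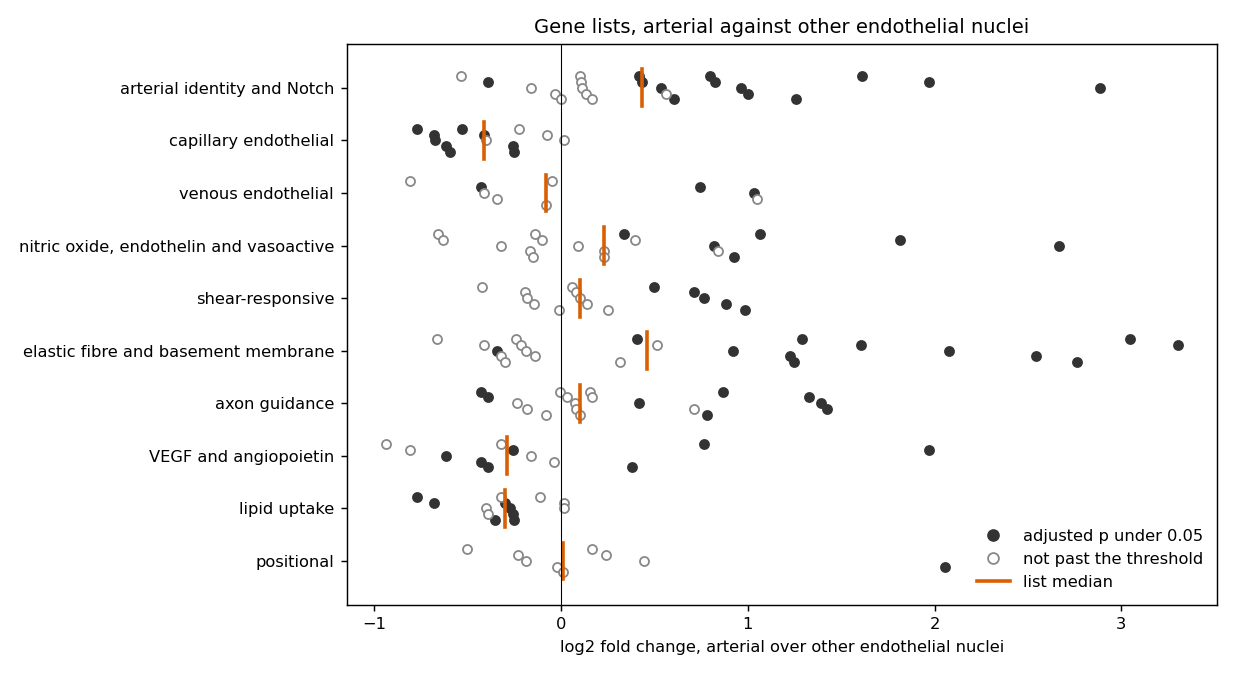
The log2 fold change, members over other endothelial nuclei, of each tested gene of 10 lists, with filled points for an edgeR adjusted p under 0.05 and a bar at the list median. Matrix and arterial genes extend to the right of 0, up to Mgp at 3.30, and the called capillary and lipid uptake genes all lie to the left, down to Gpihbp1 at -0.77.

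The members were also divided into those with Sox17 alone and those with another arterial gene. This split was made after the values were seen, uses the UMIs of the rule, and cannot be told apart here from the number of arterial UMIs. Against the other endothelial nuclei, the 407 members with Sox17 alone had 34 genes higher (0.401% of 8472 tested) and 4 lower (0.0472%), with 710 genes at an unadjusted p under 0.05. The 415 members with another arterial gene had 671 higher (7.76% of 8646) and 451 lower (5.22%). Of the 38 genes called with Sox17 alone, 36 were also called over all members, with the same sign. The Sox17-alone nuclei are part of all members, so the calls are not independent. Mgp, S100a6, Dgkb, Tm4sf1, Ptprj, Crip1 and Fbln5 were among the higher genes, Hba-a2 and Hba-a1 among the lower. Tested directly within libraries, members with another arterial gene had 191 genes higher (3.28% of 5824) and 123 lower (2.11%) than members with Sox17 alone. Of 20 tested genes of arterial identity and Notch signalling, 0 passed the test in Sox17-alone members, with a smallest adjusted p of 0.0605 and a median log2 fold change of 0.41, and 11 of 23 were higher and 1 lower in members with another gene. Compared directly, 5 of 17 genes of this list were higher in members with another gene (Vegfc, Bmx, Jag1, Clu and Mecom) and 2 were lower (Nrp1 and Cxcl12). Notch1, Notch4, Dll1, Dll4, Jag2 and Efnb2 were among the 10 that did not pass, with edgeR adjusted p of 0.302 to 0.987. By the rule, the label arterial rests on Sox17 for 407 of the members, and on further genes for 415.

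Of 13 capillary genes, 8 were lower in members with another gene than in those with Sox17 alone, with a median log2 fold change of -1.15, beside a median of -0.02 over all 5824 genes. The water channel gene Aqp1, outside the capillary list, measured 95.2, 486, 129 and 118 CPM in the Sox17-alone members of taPVAT replicates 1 and 2 and BAT replicates 1 and 2, and 28.5, 26.3, 19.5 and 31.3 CPM in members with another arterial gene. The groups did not overlap, with a log2 fold change of -2.57 ± 0.28 (SE) and an edgeR adjusted p of 1.83e-06. Kdr measured 173, 393, 189 and 215 CPM with Sox17 alone and 75.5, 84.1, 74.8 and 78.3 CPM with another gene, a difference of -1.49 ± 0.18 on the log2 scale, at an adjusted p of 6.74e-06 by edgeR. Samd5, also outside that list, measured 53.2 to 103 CPM with Sox17 alone and 0 to 15.7 CPM with another gene. Against the other endothelial nuclei the log2 fold changes of Aqp1, Kdr and Rgcc were 0.09, 0.03 and -0.05 in Sox17-alone members, with edgeR adjusted p of 0.947, 0.980 and 0.967, and -2.46, -1.48 and -1.51 in members with another gene.

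Of 20 tested elastic fibre and basement membrane genes, 9 were higher in members with another gene and 2 were lower, Nid1 (-0.94) and Lamc1 (-0.44), with a median log2 fold change of 0.59. Of 15 axon guidance genes 2 were higher and 2 lower, and of 9 VEGF and angiopoietin genes 2 and 3. Eln measured 221, 655, 585 and 100.3 CPM in Sox17-alone members of taPVAT replicates 1 and 2 and BAT replicates 1 and 2 and 1448, 2854, 3483 and 1717 CPM in members with another gene. The log2 ratio was 2.76 ± 0.18 (SE), at an adjusted p of 1.59e-09 by edgeR. Dkk2 measured 58.1, 56.1, 172 and 14.3 CPM with Sox17 alone and 710, 683, 492 and 232 CPM with another gene, a difference of 2.71 ± 0.26 on the log2 scale, at an adjusted p of 5.19e-07 by edgeR. Vegfc measured 25.8 to 103 CPM with Sox17 alone and 138 to 253 CPM with another gene, and Nos3 115 to 374 against 227 to 476 CPM. Mgp measured 711 CPM with Sox17 alone in taPVAT replicate 2 and 34.4 to 89.0 CPM in the other libraries, and with another gene 594 and 143 to 709 CPM. In taPVAT replicate 2, S100a6 (692 against 368 CPM), Tm4sf1 (271 against 231 CPM), Clu (337 against 294 CPM) and Dll1 (112 against 63.1 CPM) were, like Mgp, at a higher level with Sox17 alone. So were Thbd (280.5 against 89.4 CPM), Vwf (271 against 99.9 CPM), Klf4 (458 against 331 CPM), Klf2, Tek, Ntn1, Notch4, Vcam1 and Igfbp3. Other genes, Eln, Dkk2 and Vegfc among them, were higher with another gene there. This library had 35 members with Sox17 alone and 47 with another gene. Ltbp1 was at a higher level with Sox17 alone in 3 of 4 libraries and did not pass the test, at -0.27 with an edgeR adjusted p of 0.563. The alpha-globin gene Hba-a2 did not differ beyond its error between these groups, with a log2 fold change of -0.13 ± 0.31.

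The number of arterial UMIs gave a similar picture. Eln averaged 175 ± 80.0 CPM in nuclei with 0 arterial UMIs, 288 ± 24.9 with 1, 590 ± 309 with 2 and 2734 ± 1381 with 3 or more (SD, n = 4 libraries). Kdr averaged 225 ± 59.0, 204 ± 47.2, 201 ± 76.4 and 79.5 ± 23.9 CPM over the same groups. Nuclei with 1 arterial UMI, which the threshold kept out, were close to those with 0 for Kdr, Rgcc (168 ± 26.5 against 159 ± 27.3 CPM) and Aqp1 (159 ± 84.5 against 159 ± 68.6 CPM), and so were members with exactly 2 for Kdr. For Dkk2 (89.3 ± 37.6 against 23.4 ± 11.85 CPM) and Vegfc (58.0 ± 20.7 against 28.3 ± 12.1 CPM) nuclei with 1 were already higher than those with 0. Col18a1 (34.6 against 34.8 CPM) and Klf2 (25.5 against 27.5 CPM) were not. Depth was not equal between these groups, and when both classes were limited to nuclei of at least 2000 UMIs, 1007 genes were called.

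**Figure D4:**
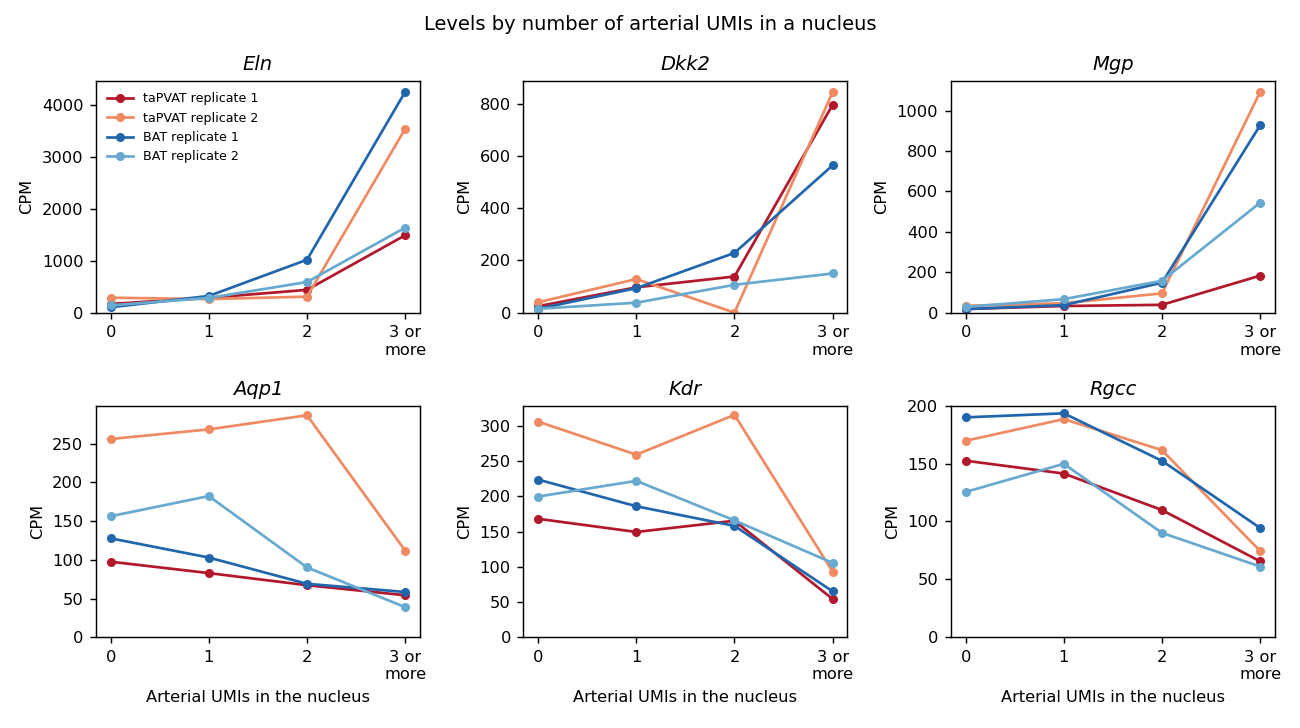
Levels in CPM of Eln, Dkk2, Mgp, Aqp1, Kdr and Rgcc in gated endothelial nuclei grouped by their number of arterial UMIs, with 1 line per library. Between 2 and 3 or more UMIs Eln averaged 590 and 2734 CPM and Kdr 201 and 79.5 CPM, while Aqp1 was already lower at 2 than at 0 UMIs in taPVAT replicate 1 and both BAT libraries.

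The comparison of taPVAT with BAT asks whether arterial endothelium differs between the depots. Within the members, no gene passed the edgeR test with 2 libraries per tissue: 0 of 8256 were called (0.0%), 109 were under 0.05 before adjustment, and DESeq2 called 1, Foxp2. Leaving out BAT replicate 1 gave 8 calls, and leaving out BAT replicate 2 gave 4. In the other endothelial nuclei edgeR also called 0 (0.0% of 12315), with 251 at an unadjusted p under 0.05. None of the 10 gene lists had a called gene, with list medians from -0.18 to 0.32 beside 0.00 over all genes. A count of 0 at this number of libraries does not show that the tissues are alike.

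Foxp2, a forkhead transcription factor gene, had the smallest p. It measured 331 and 141 CPM in members of taPVAT replicates 1 and 2 and 41.2 and 22.5 CPM for members of BAT replicates 1 and 2, a difference of 2.89 ± 0.50 (SE) on the log2 scale, at an adjusted p of 1 by edgeR. The tissues did not overlap, and Foxp2 passed the threshold without BAT replicate 1 (3.36), without BAT replicate 2 (2.57) and with no filter on low counts (2.88). The same order appeared in the other endothelial nuclei, at 405, 151, 51.8 and 20.4 CPM, and in adipocyte nuclei, at 506, 276, 63.4 and 24.3 CPM, and the part of adipocyte RNA in the difference was not tested. Gpm6a, a membrane glycoprotein gene, measured 269, 101, 47.4 and 64.4 CPM in members and 91.4 to 250 CPM in adipocyte nuclei, with a log2 fold change of 1.77, and Vat1l had one of 1.75.

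Genes higher in BAT by the same rule were Myh11, the smooth muscle myosin and a mural marker, Hlf, a transcription factor, and Ezh2, a histone methyltransferase. Myh11 measured 20.6 and 6.73 CPM in members of taPVAT and 63.1 and 94.3 CPM in those of BAT, a difference of -2.27 ± 0.51 (SE) on the log2 scale, at an adjusted p of 1 by edgeR, on 2 UMIs in taPVAT replicate 2. Of the other mural markers, Acta2 stood at 0 and 3.37 CPM in taPVAT and 9.65 and 19.5 CPM in BAT, and Tagln and Cspg4 were also higher in both BAT libraries, each on 3 UMIs in taPVAT replicate 2. Mylk, at 336 and 205 against 303 and 299 CPM, overlapped, as did Pdgfrb, Abcc9, Rgs5 and Kcnj8. Notch3 was lower in both BAT libraries, also on 3 UMIs in taPVAT replicate 2, Cnn1 and Des had 0 to 2 UMIs per library, and the summed mural markers were 500 and 316 against 494 and 584 CPM. The part of mural RNA in this difference was not tested. The log2 fold changes of Hlf and Ezh2 were -2.07 and -1.80, on 2 to 59 UMIs per library.

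Vcam1 and Tbx15, from the gene lists, are given for their size, chosen after their values were seen. Vcam1 measured 31.3 and 53.8 CPM in members of taPVAT and 3.51 and 4.49 CPM in those of BAT, and 9.86, 19.3, 4.99 and 5.37 CPM in the other endothelial nuclei. Its log2 fold change between tissues was 3.31 ± 0.61 (SE) in members, with an edgeR adjusted p of 1, and 1.38 ± 0.44 in the others, and the test of the difference gave an adjusted p of 0.863. Only 4 and 3 UMIs stood behind the BAT values. Tbx15, a T-box factor of dorsal and brown fat, measured 8.22 and 0 CPM in taPVAT members and 38.6 and 25.5 CPM in BAT members, with a log2 fold change of -2.39, and adipocyte nuclei had 9.94, 3.53, 53.1 and 22.5 CPM. The genes Abi3bp, Mctp1, Impdh1 and Ntrk3 had log2 fold changes of 0.63, 1.83, -1.18 and -1.16 in members and 0.79, 1.73, -1.50 and -1.19 in the other endothelial nuclei.

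The test of whether the tissue difference itself differed between members and other endothelial nuclei called 3 of 9755 genes (0.0308%), with 316 at an unadjusted p under 0.05. Tspan5, a tetraspanin gene, measured 60.0 and 87.5 CPM in members of taPVAT and 107 and 169 CPM in those of BAT, while the other endothelial nuclei had 32.7, 68.7, 24.8 and 32.1 CPM. In members BAT was higher in both numbers, and in the others taPVAT was, a difference of log2 fold changes of -1.56 ± 0.26 (SE), at an adjusted p of 0.0167 by edgeR. Bmp6, a ligand of the bone morphogenetic protein family, measured 177 and 306 CPM in taPVAT members and 323 and 159 CPM in BAT members against 142, 221, 107 and 65.6 CPM in the others, a difference of -1.08 ± 0.19, at an adjusted p of 0.0167 by edgeR. Klhl29, a kelch-family gene, measured 48.5, 57.2, 111 and 114 CPM in members against 38.1, 57.3, 26.5 and 42.7 CPM in the others, a difference of -1.51 ± 0.28, at an adjusted p of 0.0288 by edgeR. DESeq2 called 0 genes, and none of the 3 genes was called with doublets removed, with at least 1000 genes per nucleus or without nuclei holding at least 2 mural UMIs. Leaving out a taPVAT library raised the count, to 67 (replicate 1) and to 15 (replicate 2), and leaving out BAT replicate 1 gave 6.

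**Figure D5:**
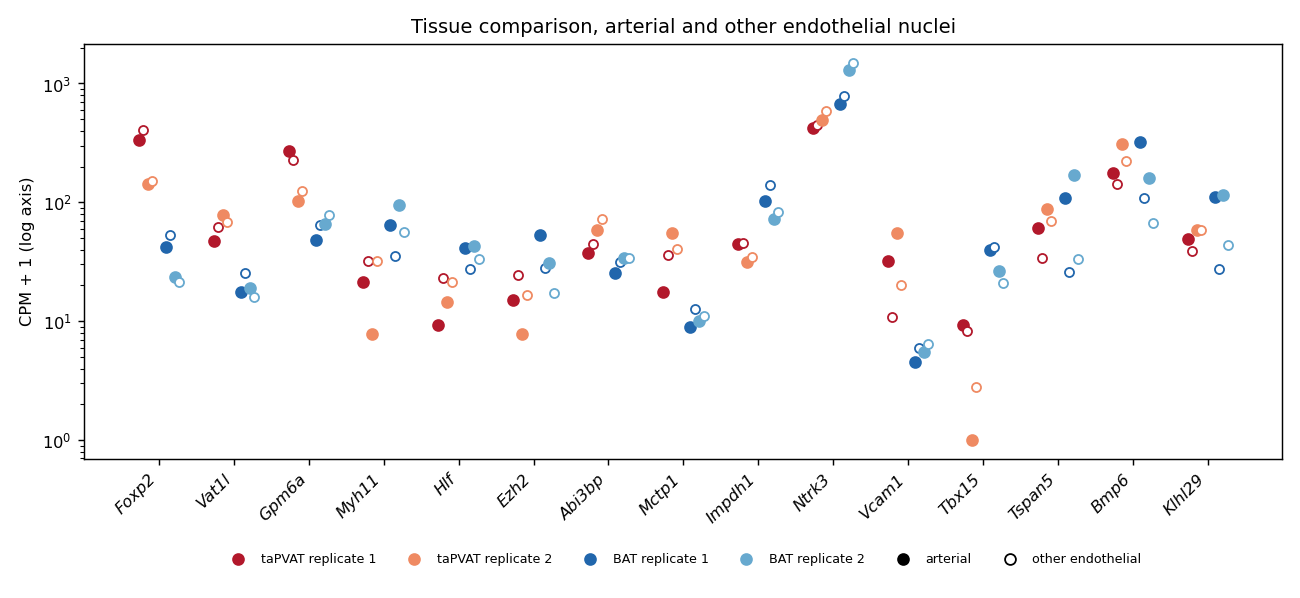
Levels on a log axis of CPM + 1 in members (filled) and other endothelial nuclei (open) of each library, for the genes named in the tissue comparisons. Foxp2 is higher in taPVAT and Tbx15 in BAT in both classes, whereas Tspan5 and Klhl29 are higher in BAT among members alone.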

How the data were processed

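The deposited matrices hold UMI counts per gene and barcode for 32883 genes, made with Cell Ranger 7.1.0 on the build Rnor_6.0, per the submitters' processing notes; the total was 63654436 to 158140959 UMIs per library. The members, gene lists and tests were chosen with earlier results of these data known. Counts of members and of other gated endothelial nuclei were summed per library, giving 297212 to 1215885 UMIs for the members. The sums were tested with edgeR 4.0.16 (quasi-likelihood test, TMM scaling, filterByExpr filter, R 4.3.3) with library as a term between classes and no block between tissues. Benjamini-Hochberg adjustment ran over all genes fitted, the threshold was 0.05, and the 17 genes of the gate are not counted among the genes tested. Fold changes are edgeR's, with the SE taken from the F statistic. The named genes are the 12 with the largest log2 fold change in each direction among called genes with the same sign in 4 of 4 libraries and at least 50 CPM in the higher class of each; for the tissues, the 3 per direction with the smallest p, the same sign in both numbers and at least 20 UMIs in each library of the higher tissue; for the difference of differences, the called genes. List genes and Abi3bp, Mctp1, Impdh1 and Ntrk3 may also be named. Of 199 list symbols 192 matched.

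Nuclei gated as adipocytes had at least 5 adipocyte-marker UMIs, no UMI of the endothelial genes of the gate and at most 1 UMI over the excluded genes. Doublets were left in, and removing those called by Scrublet (scanpy 1.11.5) was an alternative; it called 0 of 34553 barcodes in BAT replicate 1, where the 6402 highest scores were removed instead. Other alternatives were DESeq2 1.42.0, other filters, scalings and gates, thinning, a replicate block and leaving out each library. The edgeR step was run on simulated counts with known changes, and missed most 2-fold changes between tissues and for the difference of differences. The simulation used a fixed spread and no library effects, so it does not measure how the tests perform on these libraries. Promoters are RefSeq's on GRCr8, matched for 3 of the 5 arterial genes.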

Additional observations from a re-analysis of the deposited data

Results flagged for a closer look

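For 3 genes the difference between taPVAT and BAT was not the same in arterial as in other endothelial nuclei, by an edgeR test of that difference. The value was -1.56 on the log2 scale for Tspan5, -1.08 for Bmp6 and -1.51 for Klhl29, with adjusted p of 0.0167, 0.0167 and 0.0288. Between the tissues, the log2 fold changes (taPVAT over BAT) were -0.97, -0.03 and -1.12 in arterial nuclei and 0.76, 1.05 and 0.40 in the others. The sign of all 3 differences held in each alternative run, while the adjusted p with DESeq2 was 0.917, 0.917 and 1. Over all 14 alternatives the adjusted p ranged up to 1 for each gene, from 0.000186 for Tspan5, 4.57e-05 for Bmp6 and 0.00142 for Klhl29.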

How the results depend on the processing

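The class comparison, 831 genes called, gave 505 with DESeq2, 1549 with the arterial call made on 1000 thinned UMIs, 477 with at most 10% mitochondrial UMIs, 88 with no library term (568 at an unadjusted p under 0.05) and 38 with Sox17-alone members, which were chosen after seeing the data. Leaving out 1 library gave 405 to 846. DESeq2's 505 genes were all among the 831. The number of lower genes, 279, was 97 with DESeq2, 122 without called doublets, 49 without BAT replicate 1 and 75 with at most 10% mitochondrial UMIs. It was 136 with no scaling, 492 with no filter and 776 on thinned UMIs. Among the genes followed through the alternatives, Aqp1 (0.0854), Kdr (0.0258), Cd300lg (0.0294), Nr2f2 (0.18), Timp4 (0.208) and Igfbp3 (-0.136) had reversed log2 fold changes in Sox17-alone members. On thinned UMIs Gpihbp1 (0.0674) and Fabp4 (0.18) did. Of list genes not followed in this way, Nid1 (0.139), Lamc1 (0.0186) and Btnl9 (0.367) also reversed in Sox17-alone members, among others. The cause was not tested. The held-out Gja5, Gja4, Sema3g and Sox17 kept their direction and passed the threshold in each of the 5 alternatives run. Between tissues, edgeR's 0 calls became 1 with DESeq2, 11 with no filter on low counts and 0 to 8 with 1 library left out. With the replicate block the count was 2, Foxp2 among them. Same-numbered libraries shared deviations (r = 0.383 across 8269 genes, which are not independent replicates), but the labels do not establish pairs. For the difference of differences, 3 calls became 0 with DESeq2, without called doublets, with at least 1000 genes, with at least 3 arterial UMIs, on thinned UMIs and with at most 10% mitochondrial UMIs. It was 1 with at least 2 arterial genes, 5 with RLE scaling and 8 with no filter, and 3 to 67 with 1 library left out. The difference in arterial share of 2.42 points ranged from -0.81 to 5.64 with 1 library left out. Between same-numbered libraries, which the labels do not establish as pairs, it was -2.78 for number 1 and 7.61 for number 2. A single library left in a tissue is assumed to vary like the others. Depth was unequal in the tissue comparison: taPVAT replicate 2 gave only 82 arterial nuclei and 297212 UMIs. The part of depth in the count of calls was not tested.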
